A study of Mus musculus with 17 samples.

Results

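The mevalonate arm of cholesterol synthesis was followed through 7 genes, Acat2, Hmgcs1, Mvk, Pmvk, Mvd, Idi1 and Fdps, in mouse livers after a high-fat diet (HFD) or a control diet (CD). A gene was taken by its symbol in the RNA table, where all 7 were found among 12334 genes, and its acetylated regions by the start site the authors attached to them, which gave 28 of 57499 regions. In the HFD group, C57BL/6 mice (a common inbred strain) ate food with 60% of its calories as fat for 10 weeks, and in the CD group C57BL/6 mice ate one with 18% for the same time. Polyadenylated RNA was sequenced from 4 HFD livers and 4 CD livers, lettered A to D in each diet. Chromatin bound to histone H3 acetylated at lysine 9 (H3K9ac), a mark of active promoters, was sequenced from 3 HFD livers (A, B and D) and 3 CD livers (A, C and D). The labels used here give no sex, age at collection, feeding state or hour of collection, and do not say that a letter marks the same animal in both assays. Numbers in the RNA column headings ran in separate ranges in the HFD and the CD libraries, so the diet cannot be told apart from whatever they mark.

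The mevalonate arm turns acetyl-CoA into farnesyl diphosphate, the last compound that cholesterol shares with other isoprenoids such as dolichol, the ubiquinone side chain and the lipid anchors of prenylated proteins. Liver is a main site of the pathway, and its genes are classic targets of the sterol-sensing transcription factor SREBP-2, which binds sterol regulatory elements, usually with the factors NF-Y (CCAAT box) and Sp1 (GC box) nearby. In sterol-rich cells SREBP-2 is held in the endoplasmic reticulum and these genes are expressed less.

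Stretches just upstream of 5 start sites are shown because they lie under the acetylated regions described later. All but that of Acat2 also carry letters known from such promoters and marked here by capitals. All 5 come from RefSeq in build GRCm38.p6 and are given 5′ to 3′ on the strand of the gene. Each stops short of any other annotated gene. Capitals mark TCACCCCAC, the letters of a sterol regulatory element, and CCAAT, each on either strand (GTGGGGTGA and ATTGG on the other strand). They are Hmgcs1 at chr13:119690101-119690350 (plus strand), Mvk at chr5:114444074-114444263 (plus), Mvd at chr8:122443423-122443655 (minus), Idi1 at chr13:8885356-8885605 (plus) and Acat2 at chr17:12960726-12960962 (minus).
Hmgcs1: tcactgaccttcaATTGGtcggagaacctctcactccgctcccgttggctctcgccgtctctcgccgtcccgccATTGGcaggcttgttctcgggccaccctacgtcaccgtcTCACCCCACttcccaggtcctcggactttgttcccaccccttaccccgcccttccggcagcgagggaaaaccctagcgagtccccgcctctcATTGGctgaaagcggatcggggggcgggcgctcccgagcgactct
Mvk: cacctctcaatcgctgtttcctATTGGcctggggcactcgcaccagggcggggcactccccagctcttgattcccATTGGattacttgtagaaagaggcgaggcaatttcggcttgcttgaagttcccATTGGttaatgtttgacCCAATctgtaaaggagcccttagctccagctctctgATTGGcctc
Mvd: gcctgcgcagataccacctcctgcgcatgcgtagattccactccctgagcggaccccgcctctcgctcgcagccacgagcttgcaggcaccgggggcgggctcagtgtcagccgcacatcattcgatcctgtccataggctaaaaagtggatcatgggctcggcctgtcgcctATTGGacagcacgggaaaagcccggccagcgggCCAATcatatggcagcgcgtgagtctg
Idi1: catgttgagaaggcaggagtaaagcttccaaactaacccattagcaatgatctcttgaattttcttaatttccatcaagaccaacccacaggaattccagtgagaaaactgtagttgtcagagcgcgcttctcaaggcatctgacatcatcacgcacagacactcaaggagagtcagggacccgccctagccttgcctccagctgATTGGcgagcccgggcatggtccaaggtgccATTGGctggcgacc
Acat2: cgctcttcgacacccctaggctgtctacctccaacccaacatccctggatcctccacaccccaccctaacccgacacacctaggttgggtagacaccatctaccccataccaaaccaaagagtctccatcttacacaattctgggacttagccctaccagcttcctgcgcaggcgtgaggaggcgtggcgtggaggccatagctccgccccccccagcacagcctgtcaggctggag

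The letters TCACCCCAC stood at -137 to -129 from the start of Hmgcs1, and in none of the other 5 members with a RefSeq window (250 bases before to 50 after a start). Of 32851 windows of that length, 0.551% held them on either strand, or 0.614% of genes with a window. The looser TCACNCCAC, which includes them, was found in 1.24% of windows (1.44% of genes) and again in Hmgcs1 alone among the members. CCAAT was present in windows of Hmgcs1, Idi1, Mvd, Mvk and Pmvk and not in that of Acat2, or in 5 of 7 member windows, against 37.4% of all windows. For Pmvk, which has a pair of windows, the match was in that of the start at 89454541, and the window of the start at 89459571, under its acetylated start region, held none. That region also spans a start at 89459118, and no window covered the bases before it, so their letters were not read. Mvk had 5 matches to it and Hmgcs1 had 4. GGGCGG, the GC box letters, was found in 5 of the 6 members with a window (all of these but Pmvk), against 38.2% of all genes with a window. The E-box letters CACGTG were in 0 of these members and 8.09% of all genes with a window. RefSeq windows were matched for 6 members, and Fdps had none. A match says only that the letters are there.

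In the RNA, 6 of the 7 genes were lower in HFD livers, and in each of these 6 every HFD liver lay below every CD liver. The genes that fell were Hmgcs1, Mvk, Pmvk, Mvd, Idi1 and Fdps, with HFD levels between 0.328 and 0.575 of the CD level, while Acat2 at the head of the arm did not pass the test. Among all genes 3.64% were lower in HFD by the same test (edgeR's quasi-likelihood test, Benjamini-Hochberg adjusted p below 0.05 across the whole table), 7.27% differed in either direction, and 7.01% had all HFD values below all CD values. The median log2 change was -1.35 over the 7 members and 0.01 over all genes. Levels are CPM (read counts scaled to library size, after TMM factors). A change is the log2 ratio of HFD to CD, given with its standard error (SE), and adjusted p-values come from that one fit. In whole tissue, fewer cells of a type and less RNA per cell cannot be told apart.

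**Figure D1:**
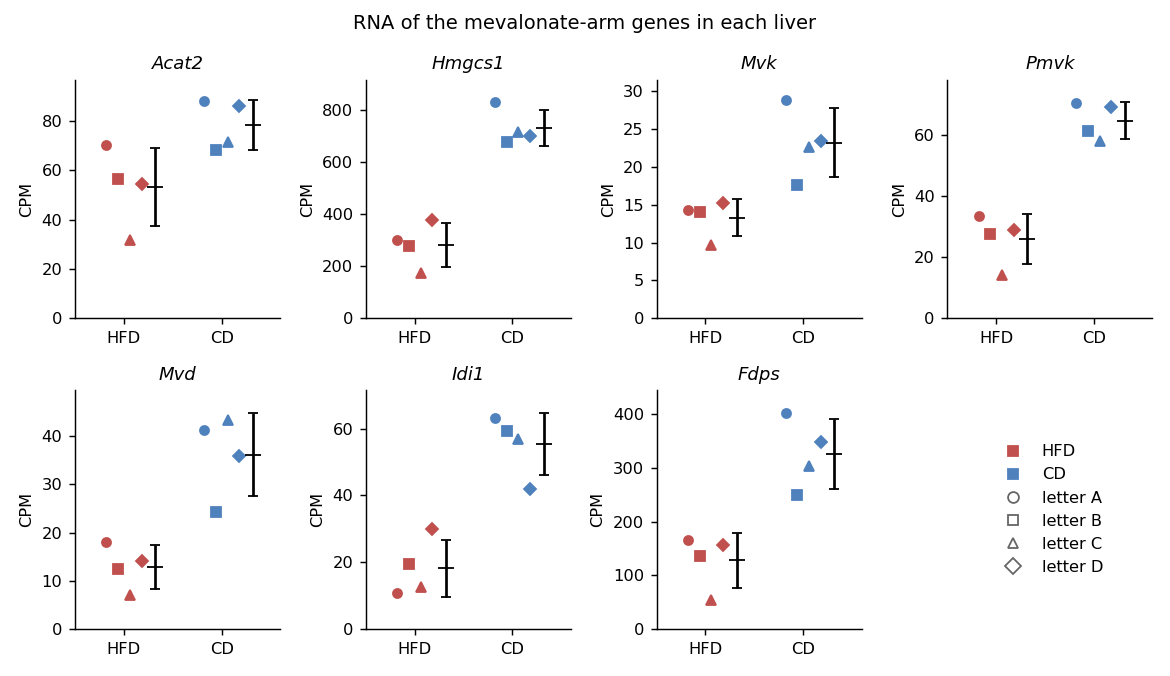
RNA level of each gene in CPM (vertical axis, from 0) in every liver, with HFD to the left of CD. Coloured points are livers, shaped by letter, and the black mark and bar are the mean and SD over 4 livers. In 6 panels all HFD points lie below all CD points, and in Acat2 they overlap.

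Acat2, the thiolase that joins 2 molecules of acetyl-CoA in the cytosol, had 70.1, 56.3, 31.7 and 54.6 CPM in HFD livers A to D and 88.1, 68.2, 71.5 and 86 CPM in CD livers A to D. HFD liver A was above CD liver B, so the groups overlapped. The means were 53.2 ± 15.9 CPM in HFD and 78.4 ± 10 CPM in CD (SD, n = 4 each), a log2 change of -0.56 (SE 0.20, adjusted p = 0.144, edgeR). Without HFD liver A the adjusted p was 0.0358. In the authors' deposited table Acat2 also missed the threshold, with a false discovery rate of 0.0793. A related thiolase gene, Acat3, lies beside it on chromosome 17. How reads that match both genes were counted is not given in the sources used here, and their part in the Acat2 value was not tested. Acat3 averaged 265 ± 51.4 CPM in HFD and 207 ± 22.9 CPM in CD (SD, n = 4 each), and did not pass (log2 change 0.36, adjusted p = 0.183, edgeR).

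Hmgcs1, the cytosolic synthase that adds a further acetyl-CoA to make HMG-CoA, had 299, 277, 174 and 378 CPM in HFD livers A to D and 832, 679, 716 and 699 CPM in CD livers A to D. The highest HFD liver, D, was well under the lowest CD liver, B. Hmgcs1 averaged 282 ± 84.2 CPM in HFD and 731 ± 68.7 CPM in CD (SD, n = 4 each), 61.5% lower in HFD by the fit. Its log2 change of -1.38 (SE 0.20, adjusted p = 0.00237, edgeR) had the smallest p of the 7, and the call held when any one liver was left out.

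Mvk, mevalonate kinase, adds the first phosphate to mevalonate, and Pmvk, phosphomevalonate kinase, adds the next. Mvk had 14.3, 14, 9.66 and 15.2 CPM in HFD livers A to D and 28.8, 17.6, 22.7 and 23.5 CPM in CD livers A to D. Only a narrow gap separated HFD liver D from CD liver B. It averaged 13.3 ± 2.49 CPM in HFD and 23.2 ± 4.56 CPM in CD (SD, n = 4 each), and its log2 change was -0.80 (SE 0.18, adjusted p = 0.0213, edgeR), the smallest among the 6 that fell. The Mvk call was lost without CD liver A (adjusted p = 0.063), CD liver C (0.0531) or HFD liver B (0.0544). Pmvk had 33.4, 27.5, 14.3 and 29 CPM in HFD livers A to D and 70.7, 61.3, 58 and 69.2 CPM in CD livers A to D. Every CD liver stood well above the highest HFD liver, A. The Pmvk means were 26 ± 8.22 CPM in HFD and 64.8 ± 6.13 CPM in CD (SD, n = 4 each), with a log2 change of -1.32 (SE 0.22, adjusted p = 0.00477, edgeR).

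Mvd, the decarboxylase that makes isopentenyl diphosphate, had 18, 12.5, 7.01 and 14.1 CPM in HFD livers A to D and 41.4, 24.2, 43.4 and 35.9 CPM in CD livers A to D. CD liver B was low for its group and still above all HFD livers. Means were 12.9 ± 4.56 CPM in HFD and 36.2 ± 8.64 CPM in CD (SD, n = 4 each), and the log2 change was -1.49 (SE 0.27, adjusted p = 0.00743, edgeR). Idi1, the isomerase that turns isopentenyl diphosphate into dimethylallyl diphosphate, had 10.9, 19.5, 12.5 and 29.8 CPM in HFD livers A to D and 63.1, 59.4, 57 and 42 CPM in CD livers A to D. HFD liver D and CD liver D came closest to each other. With 18.2 ± 8.59 CPM in HFD and 55.4 ± 9.26 CPM in CD (SD, n = 4 each), Idi1 had the largest log2 change of the 7, -1.61 (SE 0.28, adjusted p = 0.00698, edgeR), or 67.2% lower in HFD. Fdps, the synthase that joins these units into farnesyl diphosphate, had 166, 135, 53.6 and 157 CPM in HFD livers A to D and 402, 250, 303 and 348 CPM in CD livers A to D. HFD liver C was at -2.58 relative to the CD mean on the log2 scale, and the other 3 HFD livers were close together. Fdps averaged 128 ± 51.3 CPM in HFD and 326 ± 64.7 CPM in CD (SD, n = 4 each), and fell by 1.35 on the log2 scale (SE 0.30, adjusted p = 0.0223, edgeR). That call was lost without CD liver A (adjusted p = 0.0655), CD liver D (0.0517) or HFD liver B (0.0647).

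Whether the members fell by different amounts was tested on the log2 ratio of 2 members within each liver. Scaling to library size cancels in this ratio, apart from its small effect through the prior count of 2. Of 21 pairs, 8 reached the smallest p that an exact permutation test of 4 against 4 livers allows (two-sided p = 0.0286, 70 assignments), and 0 passed after adjustment over the pairs (adjusted p = 0.075). At least 13 pairs would have had to reach that smallest p for any to pass. These 8 pairs set Acat2 or Mvk against each of Hmgcs1, Pmvk, Mvd and Fdps. The log2 ratio of Acat2 to Hmgcs1 was -2.41 ± 0.29 in HFD and -3.22 ± 0.14 in CD (SD, n = 4 each), and that of Mvk to Fdps was -3.16 ± 0.47 in HFD and -3.81 ± 0.06 in CD (SD, n = 4 each). Hmgcs1 and Fdps kept nearly equal ratios, 1.21 ± 0.37 in HFD and 1.18 ± 0.20 in CD on the log2 scale (SD, n = 4 each; exact permutation p = 0.857).

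Per length of transcript, in log2 FPKM from the authors' deposited table, Fdps and Hmgcs1 had the highest levels in both diets. In HFD livers the mean levels were 6.33 for Fdps and 6.25 for Hmgcs1, then 4.62 for Acat2 and 4.05 for Pmvk, then 2.93 for Mvk, 2.72 for Mvd and 2.55 for Idi1. In CD livers they were 7.78 for Fdps and 7.67 for Hmgcs1, then 5.42 for Pmvk and 5.23 for Acat2, then 4.26 for Idi1, 4.25 for Mvd and 3.72 for Mvk. Fdps and Hmgcs1 overlapped over livers in both diets and lay above the ranges of the other 5 genes. Acat2 and Pmvk overlapped in both diets, and so did neighbours among Idi1, Mvd and Mvk. In HFD livers Idi1, with a highest value of 3.38, and Mvd, with 3.28, also reached past the lowest Pmvk value of 3.25, while in CD livers the ranges of these 3 genes lay below those of Acat2 and Pmvk.

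Across the arm the livers of a diet did not scatter independently. HFD liver C was lowest of its diet in 6 of 7 genes, with a mean log2 level of -1.97 relative to the CD mean, against -1.04, -1.15 and -0.92 in HFD livers A, B and D. The exception was Idi1, whose lowest HFD liver was A (-2.32 relative to the CD mean, where the other members of liver A lay between -1.28 and -0.15). Among CD livers, A was highest in 6 of 7 genes and B lowest in 5 of 7. Without HFD liver C the same 6 genes passed, with a median change of -1.11 over the 7 members in place of -1.35, and Fdps changed by -1.09 (SE 0.17, adjusted p = 0.00429, edgeR). No H3K9ac library carries the letter C under HFD.

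**Figure D2:**
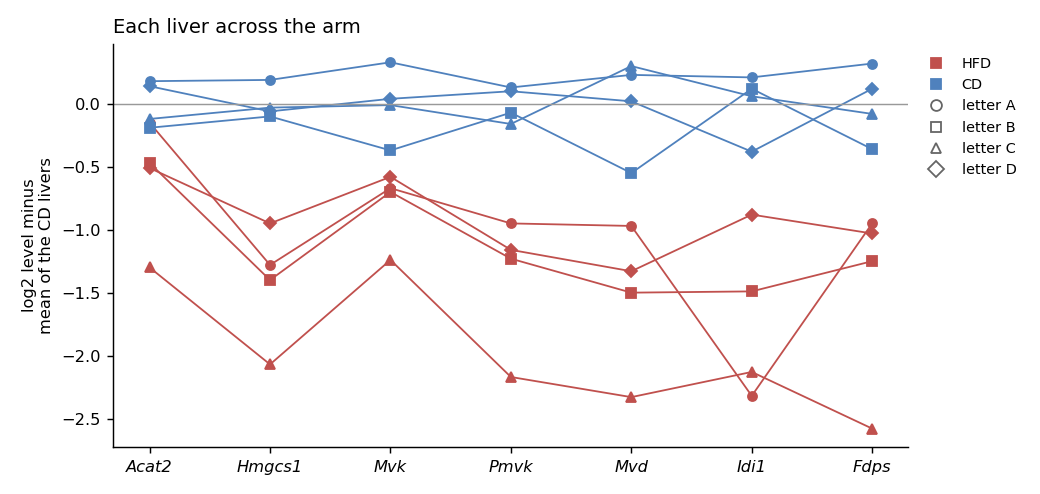
Log2 level of each gene minus the mean of the 4 CD livers (vertical axis), along the arm from Acat2 to Fdps (horizontal axis). A line joins the values of 1 liver, coloured by diet and marked by letter. HFD liver C runs lowest except at Idi1, where HFD liver A is lowest at -2.32.

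The correlation of each member with the mean of the other 6 over the 8 libraries ran from 0.839 for Idi1 to 0.989 for Hmgcs1. These are descriptions, since the libraries share the diet difference. With the mean of each diet taken off, 6 members still had r between 0.824 and 0.975, and Idi1 had 0.281. The genes most like the mean of the members over the 8 libraries were Msmo1 (r = 0.993), Lss (0.984), Rdh11 (0.983), Maged1 (0.982), Nsdhl (0.979), Cyp51 (0.979), Sqle (0.979) and Fdft1 (0.976). Of these, 6 belong to the squalene-to-sterol branch. With diet means taken off, the closest were Rnf114 (r = 0.994), Nfkb2 (0.986), Tapbp (0.979), Cdc42ep1 (0.976), Msmo1 (0.974), Dhcr7 (0.974), Prnp (0.973) and Lrp10 (0.967). Only Msmo1 and Dhcr7 of these are sterol enzymes. Both lists were picked as the highest r among all non-member genes, over only 8 libraries. HFD liver C lay farthest from the mean of its diet across the arm. Its part in the r values with diet means taken off, those of the members included, was not tested.

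Downstream, 9 of the 13 squalene-to-sterol enzymes were lower in HFD and 0 were higher, with a median log2 change of -0.83. Sqle, the squalene epoxidase, averaged 38.9 ± 23 CPM in HFD and 146 ± 16.8 CPM in CD (SD, n = 4 each; log2 change -1.91, SE 0.35, adjusted p = 0.00878, edgeR). Cyp51, the lanosterol demethylase, averaged 111 ± 34.8 CPM in HFD and 292 ± 36.6 CPM in CD (SD, n = 4 each; log2 change -1.39, SE 0.21, adjusted p = 0.00311, edgeR). Lss, Msmo1, Nsdhl, Fdft1, Lbr, Hsd17b7 and Dhcr7 also fell, by 0.48 to 1.20 on the log2 scale. Tm7sf2 (-0.64), Ebp (-0.08) and Sc5d (-0.11) were among those that did not pass by edgeR. DESeq2 called 10 of the 13 lower, with Tm7sf2 added, in which every HFD liver was below every CD liver. Of 13 genes that make other products from isoprenyl diphosphates or process prenylated proteins, such as Ggps1, the geranylgeranyl diphosphate synthase, and Dhdds of dolichol synthesis, 0 passed in either direction by edgeR and 0 by DESeq2, and their median log2 change was -0.01. At an unadjusted p below 0.05 the list held 1 gene, Rabggtb, a subunit of the enzyme that prenylates Rab proteins (log2 change -0.26, adjusted p = 0.14, edgeR).

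Of 9 genes of the SREBP pathway, 1 fell and 1 rose. Srebf2, which encodes SREBP-2, had 44.4, 46.4, 36.5 and 54.9 CPM in HFD livers A to D and 69.3, 64, 69 and 64.2 CPM in CD livers A to D. All HFD livers were below all CD livers, and its log2 change was -0.55 (SE 0.12, adjusted p = 0.0213, edgeR). Srebf1, whose product mainly drives fatty acid synthesis genes, had 637, 671, 514 and 452 CPM in HFD livers A to D and 170, 147, 269 and 355 CPM in CD livers A to D. It was above all CD livers in every HFD liver, with a log2 change of 1.27 (SE 0.26, adjusted p = 0.0144, edgeR). Scap, Insig1 and Insig2, which hold or escort the SREBP proteins, did not pass, nor did Mbtps1, Mbtps2 and Stard4. Among 5 genes of acetyl-CoA supply 0 passed by edgeR or DESeq2. Acss2, the cytosolic acetyl-CoA synthetase, was the 1 gene with an unadjusted p below 0.05 (log2 change -0.79, adjusted p = 0.157, edgeR). Among 8 relatives of Acat2 and Hmgcs1, most of them mitochondrial or peroxisomal, only Bdh1 passed. Bdh1, the ketone-body dehydrogenase, averaged 309 ± 25.2 CPM in HFD and 178 ± 9.38 CPM in CD (SD, n = 4 each; log2 change 0.79, SE 0.09, adjusted p = 0.000806, edgeR).

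The tissue label was checked on marker genes. Of 12 hepatocyte markers 11 were in the table and 0 passed by edgeR (5 at an unadjusted p below 0.05, and 3 by DESeq2). Of these 5, Tat, Cps1, Apoh and Arg1 were higher in HFD and Fgb was lower, and the median log2 change of the 11 was 0.28. Their summed level, most of it Alb, ran from 111260 to 141180 CPM in HFD livers and from 100504 to 119313 CPM in CD livers. Kupffer cell and macrophage markers (12 of 12 measured) summed to 178 to 473 CPM in HFD and 231 to 337 CPM in CD, and sinusoidal endothelium markers (12 of 12) to 179 to 361 CPM in HFD and 218 to 303 CPM in CD, with 0 called in either list by edgeR, adjusted or not, or by DESeq2. Stellate cell markers (12 of 12) summed to 325 to 559 CPM in HFD and 415 to 492 CPM in CD, and lymphocyte markers (4 of 8) to 7.18 to 16.4 CPM in HFD and 7.73 to 11.9 CPM in CD, with 0 called by edgeR or DESeq2. At an unadjusted p below 0.05 there were 2 stellate cell markers and 0 lymphocyte markers. Cholangiocyte markers (5 of 7) summed to 35.5 to 61 CPM in HFD and 57.7 to 68.5 CPM in CD, and Sox9 among them fell (log2 change -1.45, adjusted p = 0.00987, edgeR), the 1 call by edgeR and by DESeq2. Krt7 (-0.77) and Krt19 (-1.03) had an unadjusted p below 0.05, and the median log2 change of the 5 was -0.77. What part these markers had in the member values was not tested. Total counts were 31802893 to 37596560 per RNA library and 9255635 to 12149497 per H3K9ac library.

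H3K9ac was lower in HFD in 2 of the 28 member regions and higher in 0, against 1.55% of all regions that were lower by the same test. The regions that fell were those over the starts of Fdps and Pmvk. In 22 of the 28 regions the log2 change was below zero, with a median of -0.24 over the member regions and 0.00 over all regions. In 11 regions every HFD library was below every CD library, against 8.36% of all regions. Of these 11, 4 spanned a start of their gene, and the others were weak regions, some of them outside the member gene. Among the 28, 20 lay more than 1000 bases from the start they are attached to. Regions inside a member gene but attached to another gene were not taken by the rule. Mvk and Pmvk had 8 regions each, Hmgcs1 4, Mvd and Fdps 3 each, and Acat2 and Idi1 1 each. Regions of 1 gene share their libraries and are not replicates of each other.

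Of the 28, 6 spanned an annotated start of their gene. Among all regions spanning the start they are named for, 1.88% were lower in HFD and 6.52% had all HFD libraries below all CD libraries. For the 6 member regions these counts were 2 and 4, and their median log2 change was -0.24, against 0.01 over all such regions. Their H3K9ac changes lay between -0.41 and -0.10, each nearer to zero than the change of the gene's RNA. The difference between the assays was not tested.

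**Figure D3:**
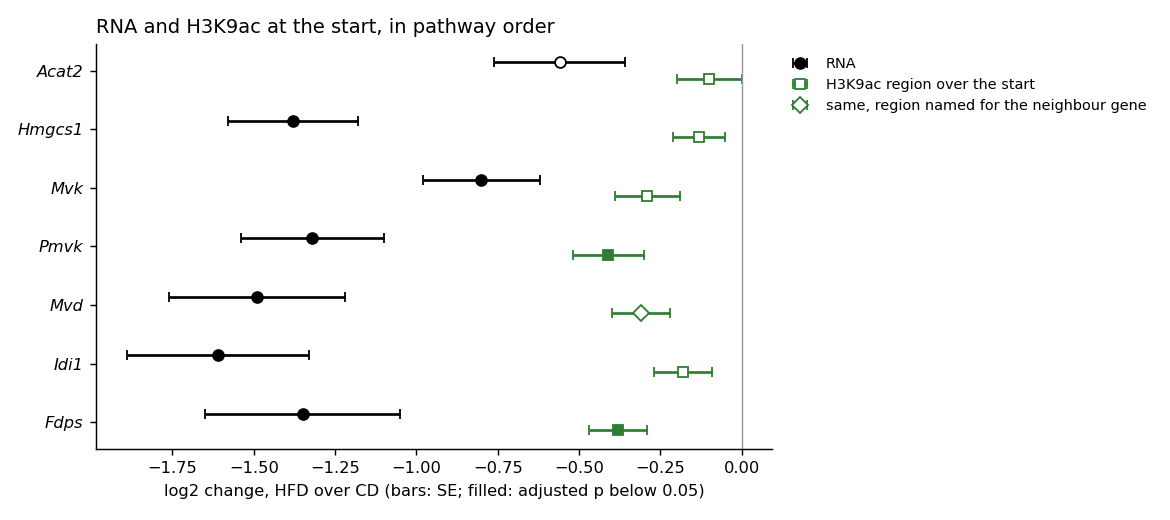
Log2 change of HFD over CD (horizontal axis) for the RNA (black circles) and for H3K9ac in the region over the start (green squares), genes in pathway order from top to bottom. Bars are the SE, and filled symbols passed the test at an adjusted p of 0.05. The diamond for Mvd is a region that the table names for a neighbouring gene. RNA changes run from -1.61 to -0.56 and H3K9ac changes from -0.41 to -0.10.

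The Fdps region, chr3:89098038-89102333 (mm10, 4296 bases, from upstream of the start through the first part of the gene), had 74, 68.7 and 66.8 CPM in HFD livers A, B and D and 97.4, 99.4 and 75.8 CPM in CD livers A, C and D. CD liver D lay just above the HFD range. Its log2 change was -0.38 (SE 0.09, adjusted p = 0.00515, edgeR), or 23.2% lower in HFD. The call was lost without CD liver A (adjusted p = 0.0686), CD liver C (0.139) or HFD liver B (0.0891). The Pmvk region, chr3:89458904-89459834 (931 bases), had 29.5, 25 and 22.6 CPM in HFD livers A, B and D and 34.5, 36.9 and 31 CPM in CD livers A, C and D. HFD liver A and CD liver D were close, and the groups did not overlap. Its log2 change was -0.41 (SE 0.11, adjusted p = 0.0358, edgeR). This call was the less stable of the pair: it was lost without CD liver A (adjusted p = 0.11), CD liver C (0.279), HFD liver B (0.27) or HFD liver D (0.114), with DESeq2 in place of edgeR (0.0792), with library totals (0.0513) and under a filter at the median level (0.0729).

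Mvk shares its promoter with Mmab, which encodes a cobalamin adenosyltransferase and starts 242 bases away on the other strand. The region over both starts, chr5:114443528-114445009, had 38.2, 37.9 and 38.9 CPM in HFD livers A, B and D and 45.3, 48.6 and 47 CPM in CD livers A, C and D. Values within each diet were close together and the groups stood apart, with a log2 change of -0.29 (SE 0.10, adjusted p = 0.103, edgeR) that did not pass. Mmab RNA was 31.5 ± 6.15 CPM in HFD and 43.9 ± 5.1 CPM in CD (SD, n = 4 each), below all CD livers in every HFD liver, with a log2 change of -0.48 (adjusted p = 0.0938, edgeR), while Mvk had -0.80. The authors' deposited table gives Mmab a false discovery rate of 0.0462. Reads from overlapping or opposed genes cannot be told apart here, since the use of strand in counting is not given in the sources used here.

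The start of Mvd lies in a region, chr8:122442427-122444771, that the authors' table attaches to the opposed gene 9330133O14Rik, so the rule did not take it, and it was added after its values were seen. It had 67.9, 64.4 and 62.5 CPM in HFD livers A, B and D and 84.2, 91 and 65.5 CPM in CD livers A, C and D. CD liver D was near HFD liver A and under it. The log2 change was -0.31 (SE 0.09, adjusted p = 0.0522, edgeR), which narrowly missed the threshold, and without CD liver D the adjusted p was 0.00185. The RNA of 9330133O14Rik, at 0.846 ± 0.188 CPM in HFD and 1.01 ± 0.137 CPM in CD (SD, n = 4 each), did not pass (log2 change -0.26, adjusted p = 0.618, edgeR).

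Idi1, with the largest RNA change, had 47.9, 45.4 and 47.7 CPM of H3K9ac over its start (chr13:8885314-8886394) in HFD livers A, B and D and 51, 56.2 and 52.3 CPM in CD livers A, C and D. The groups did not overlap, though the log2 change was only -0.18 (SE 0.09, adjusted p = 0.482, edgeR). Hmgcs1, whose RNA fell by 1.38, had 102, 88 and 98.1 CPM over its start (chr13:119689856-119691665) in HFD livers A, B and D and 108, 107 and 99.2 CPM in CD livers A, C and D. HFD liver A exceeded CD liver D, and the log2 change was -0.13 (SE 0.08, adjusted p = 0.613, edgeR). It is the region that holds the capitals TCACCCCAC printed above. For Acat2 the start region (chr17:12959953-12961385) had 45.5, 41.3 and 35.7 CPM in HFD livers A, B and D and 43.4, 47.2 and 41.1 CPM in CD livers A, C and D. These overlapped widely (log2 change -0.10, SE 0.10, adjusted p = 0.799, edgeR). Another annotated gene, Gm15946, bounds the Acat2 stretch printed above and also overlaps this region, so the region is not that of Acat2 alone.

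**Figure D4:**
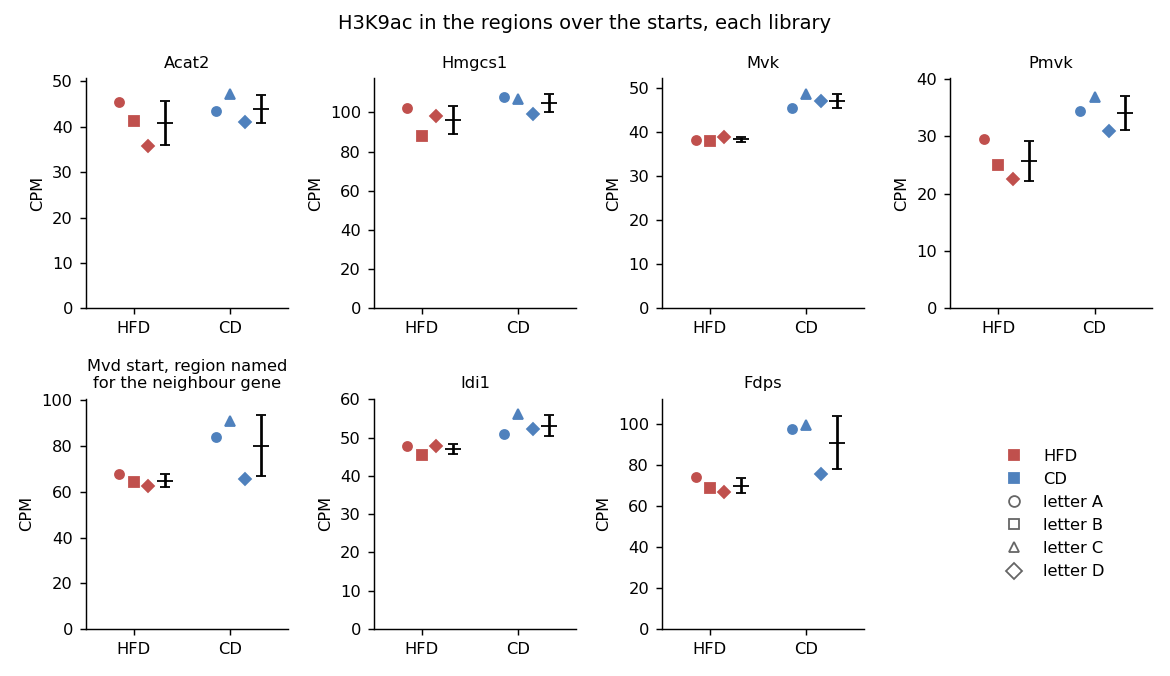
H3K9ac in CPM (vertical axis, from 0) in the region over the start of each gene, in every library, with HFD to the left of CD. Coloured points are libraries, shaped by letter, and the black mark and bar are the mean and SD over 3 libraries. HFD points lie below all CD points for Mvk, Pmvk, Idi1 and Fdps, and the groups overlap for Acat2, Hmgcs1 and the region over the Mvd start.

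Away from the starts the signal was low. A region of 233 bases centred 994 bases upstream of the Hmgcs1 start (chr13:119689240-119689472) had 8, 6 and 2 reads in HFD livers A, B and D and 22, 13 and 16 reads in CD livers A, C and D, or 0.474 ± 0.234 CPM in HFD and 1.54 ± 0.442 CPM in CD (SD, n = 3 each). All HFD libraries were below all CD libraries, at so few reads that counting error is large. Its log2 change of -1.63 (SE 0.51) missed the threshold here with an adjusted p of 0.0813 (edgeR), while the authors' deposited table gives it a false discovery rate of 0.0315. The other proximal region, upstream of Pmvk, had a log2 change of -0.38 (adjusted p = 0.7, edgeR). In the 20 regions farther out, mean levels in CD were 0.911 to 6.05 CPM, 0 passed by edgeR (2 at an unadjusted p below 0.05), 14 had a change below zero, and the median change was -0.11. DESeq2 called 0 of them and gave no adjusted p for 16. The lowest adjusted p among them was 0.202 (edgeR).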

How the data were processed

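Livers of C57BL/6 mice on HFD or CD were profiled for polyadenylated RNA and H3K9ac. The members and the gene lists were chosen with earlier results of these data known. Per the file headers, the authors deposited raw counts per gene and log2 FPKM per liver for the RNA, raw counts per region over a common set of regions for H3K9ac, and log2 fold changes with a false discovery rate (an adjusted p-value) of their own test for both. Coordinates are in mm10, the build named per the submitters' processing notes. The aligner, counter, peak caller and the test behind the authors' values: not given in the sources used here. The RNA table had 4999 blank lines, which were left out, and genes with few reads are absent from it: the lowest mean count was 13.9. The H3K9ac table had 57571 lines for 57499 distinct regions, each used once, with no input subtracted here.

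Diets were compared per assay with edgeR 4.0.16 in R 4.3.3 (TMM scaling, filterByExpr, which removed 0 genes and 0 regions, glmQLFit and glmQLFTest with diet as the only term), two-sided, with Benjamini-Hochberg adjustment over the whole table and a threshold of 0.05. The SE is the change divided by the square root of the F statistic. P-values measure the spread between livers as labelled, and nothing says how the livers were chosen. Log2 levels per liver used a prior count of 2. Ratios of members were tested with an exact permutation test over livers. Likeness is Pearson's r of log2 levels with the mean of the members. A start region of a member is one that spans any start listed for that gene in the H3K9ac table. The shares over all start regions count regions that span the start they are named for, a slightly narrower rule. Counts carry no molecular identifiers, so precision by depth covers counting error only. Alternatives were DESeq2 1.42.0, library totals, a filter at the median level, no filter, prior count 0.5, the letter as a block and each library left out. By rule the text names all members and their regions, up to 6 genes per list that passed, by smallest p, and the 8 most alike genes. Genes that have a RefSeq window and a start within 1000 bases of a member start are named too. So are 9330133O14Rik and Gm15946, the annotated genes that bound the Mvd and Acat2 stretches. Acat3, the region over the Mvd start and the remaining list genes were named after their values were seen. ATAC and input libraries were not analysed here. Some genes are not reported here.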

Additional observations from a re-analysis of the deposited data

How the results depend on the processing

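The RNA count of 6 members called lower held under DESeq2, library totals, a filter at the median level and the letter as a replicate block (6 in each), and lay between 4 and 7 with 1 library left out. The median RNA change of the members was then -1.46 to -1.11. No alternative turned the direction of any member or of any region over a start. All genes past the threshold numbered 897, against 1405 with DESeq2, 526 under the median filter, which tests fewer genes, 826 with the replicate block, and 478 to 1107 with 1 library left out. The H3K9ac calls were less stable. Member regions called lower numbered 2, against 1 with DESeq2, 1 with library totals, 1 under the median filter, 1 with the replicate block and 0 to 2 with 1 library left out. Fdps was the region called under DESeq2, library totals, the median filter and the replicate block, and the cause of the loss of Pmvk was not tested (adjusted p = 0.187 with the replicate block, edgeR). Using no filter is the same fit, since the filter removed 0 genes and 0 regions. Regions past the threshold numbered 1372, against 813 with DESeq2, 859 under the median filter and 563 to 1862 with 1 library left out. The median change of the 6 regions over a start was -0.26 to -0.20 with 1 library left out. The letters were not taken to pair livers: deviations of same-lettered RNA libraries correlated at 0.295 (A), 0.0613 (B), 0.235 (C) and -0.222 (D), and only A and D are shared in H3K9ac (0.0898 and 0.081). Each of these last 2 correlated best with its own letter, and in the RNA only B did, a hint from the data and not from the design. A prior count of 0.5 also gave 0 of 21 pairs, in a design that could pass only with 13 at the smallest p. Leaving out 1 library ends the RNA calls of Mvk and Fdps and both H3K9ac calls, and none of the RNA calls of Hmgcs1, Pmvk, Mvd and Idi1.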
